A study of Homo sapiens with 6 samples.

Results

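The genes described here encode the best known brakes on mTOR complex 1 (mTORC1): *DDIT4* (the protein is called REDD1), the sestrin genes *SESN1*, *SESN2* and *SESN3*, the tuberous sclerosis genes *TSC1* and *TSC2*, *DEPTOR* and *CASTOR1*. They were chosen by gene name in GENCODE release 44, and are 8 of the 62252 genes and 151 of the 251612 transcripts to which the files could be matched. The data come from K562 cells, an erythroid leukemia line grown in suspension. In the Chelator group cells were kept overnight in complete RPMI 1640 medium with 10 µM 21H7, a cell-permeable iron chelator, and in the DMSO group with the same volume of solvent. Each group had 3 replicates, and polyadenylated RNA was sequenced as paired-end reads. All libraries come from 1 cell line and 1 time, with 1 chelator and 1 dose.

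mTORC1 is a protein kinase at the lysosome that drives protein synthesis and growth and restrains autophagy while nutrients and growth factors are present. Growth factor signals reach it through the TSC complex, which turns off the small GTPase RHEB. Amino acid signals reach it through the Rag GTPases, which the GATOR1 complex turns off and the GATOR2 complex protects. REDD1 acts through the TSC complex and is a classic product of hypoxia and of the integrated stress response. Sestrins bind GATOR2 and hold it back, SESN2 as a leucine sensor, and CASTOR1 does the same as an arginine sensor. DEPTOR binds mTOR itself.

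The DMSO libraries had 78.6 to 90.4 M (1e+06) estimated counts, against 85.4 to 101 M in Chelator. All 8 erythroid markers examined were at 1 TPM or more in every library (TPM is a level per transcript length, with an equal total in each library), and summed to 12366 to 13709 TPM in DMSO and 17486 to 18673 TPM in Chelator, nearly all of it globin RNA. The erythroid factor genes *KLF1* (77.8 to 87.4 TPM in DMSO and 47.7 to 52.9 TPM in Chelator) and *TAL1* (48.7 to 61.7 and 42.9 to 46.1 TPM) were lower in Chelator without overlap, and *GATA1* (163.8 to 178.4 and 151.02 to 163.9 TPM) overlapped between the groups. The T cell markers summed to 10.8 to 17.0 TPM in DMSO and 39.9 to 41.7 TPM in Chelator, which was nearly all CD3D, while CD3E and CD3G stayed under 1 TPM in every library. The summed levels of the 4 other marker lists also separated the groups: epithelial markers, nearly all EPCAM, at 62.4 to 68.9 TPM in DMSO and 45.8 to 50.4 TPM in Chelator, monocyte markers, nearly all LYZ, at 11.4 to 12.1 and 17.3 to 19.8 TPM, and B cell and fibroblast markers under 4 TPM in all libraries. The part of such transcripts in the results below was not tested. The difference between transcript length and effective length, which grows with fragment length, was 264 to 274 bases in DMSO and 218 to 231 bases in Chelator. Since the groups were fully separate in it, treatment and fragment length cannot be told apart.

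Promoter sequence is shown first for the genes whose RNA rose and, for comparison, for *TSC2*, which was not called. The sequences are the bases just before the start site in RefSeq (GRCh38.p14), on the strand of the gene, and end where the GENCODE gene begins. Capitals mark the letters ACGTG or GCGTG (the core of the element bound by hypoxia-inducible factors), TGATGNAA (a form of the element bound by ATF4 with C/EBP factors) or TGTTTAC (the element of FOXO factors), on either strand.
DDIT4, chr10:72273674-72273918, plus strand: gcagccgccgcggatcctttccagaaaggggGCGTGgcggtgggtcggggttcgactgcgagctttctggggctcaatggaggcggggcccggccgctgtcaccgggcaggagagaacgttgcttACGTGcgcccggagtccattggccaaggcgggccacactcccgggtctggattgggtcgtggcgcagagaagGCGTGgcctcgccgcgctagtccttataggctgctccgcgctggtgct
SESN2, chr1:28259268-28259517, plus strand: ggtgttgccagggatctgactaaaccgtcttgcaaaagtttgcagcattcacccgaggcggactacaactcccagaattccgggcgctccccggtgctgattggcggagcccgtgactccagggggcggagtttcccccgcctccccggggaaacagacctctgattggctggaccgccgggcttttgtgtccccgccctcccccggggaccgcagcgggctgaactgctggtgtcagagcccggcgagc
SESN3, chr11:95232542-95232725, minus strand: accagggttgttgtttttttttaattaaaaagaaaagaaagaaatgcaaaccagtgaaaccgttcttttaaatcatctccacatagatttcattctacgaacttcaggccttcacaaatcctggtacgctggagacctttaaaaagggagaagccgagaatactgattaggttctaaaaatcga
TSC2, chr16:2047735-2047966, plus strand: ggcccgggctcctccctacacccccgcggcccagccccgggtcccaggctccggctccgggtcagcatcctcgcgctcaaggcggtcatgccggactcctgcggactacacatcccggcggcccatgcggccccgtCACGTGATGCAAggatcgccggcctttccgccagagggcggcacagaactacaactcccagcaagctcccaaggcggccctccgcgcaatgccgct

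The search covered the 250 bases before each start site, and 7 of the 8 genes had at least 1 such window, 10 windows in all. *DDIT4* held 1 ACGTG, 125 to 121 bases before its start site, and GCGTG at 219 to 215 and at 53 to 49 bases. In the window shown, *TSC2* held ACGTG on both strands, since CACGTG reads the same on either, and a TGATGNAA at 110 to 103 bases that overlaps it. Its other window had no match. None of these letters were in the windows of *SESN2*, *SESN3* or *TSC1*, while *CASTOR1* held GCGTG at 3 places and *SESN1* at 1 place in 1 of its 3 windows. Over all 35116 windows searched, 18.5% held ACGTG, 32.2% GCGTG, 3.14% TGATGNAA and 2.98% TGTTTAC. A match describes these letters only, and elements outside the windows were not searched. Positions count from the RefSeq start site, and the printed sequences end 5 (*DDIT4*), 66 (*SESN3*) and 18 bases (*TSC2*) before it.

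To see how low iron availability affects these genes, their RNA was compared between the groups. *DDIT4* and *SESN2* rose strongly, *SESN3* rose from a low level, and *SESN1*, *TSC1*, *TSC2*, *DEPTOR* and *CASTOR1* did not pass the test. The test was DESeq2's Wald test across all genes, and calls needed a p below 0.05 after Benjamini-Hochberg adjustment together with a log2 fold change beyond 1 in either direction. By this rule 3 of the 8 genes were called higher and 0 lower, against 7.81% of all 25553 genes with an adjusted p called higher and 2.46% called lower. The normalized counts of the groups (counts corrected for library depth and transcript length) did not overlap for 6 of the 8 genes, against 47.9% of all genes. In bulk RNA, more cells with a transcript and more of it per cell cannot be told apart.

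*DDIT4* (ENSG00000168209.6, chromosome 10, 72273919 to 72276036, plus strand) was the most abundant of the 8 in both groups. Its level was 102, 104 and 95.9 TPM in DMSO and 505, 511 and 523 TPM in Chelator. The groups lay far apart and each was tight. Estimated counts were 12963, 10774 and 10439 in DMSO against 67409, 73648 and 64000 in Chelator. The log2 fold change was 2.32 (SE 0.074, DESeq2 adjusted p = 2.23e-213), a 4.98-fold rise with a 95% interval of 4.51 to 5.51. Of the 10341 genes whose normalized count averaged 500 or more, 74 had a larger log2 fold change.

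*SESN2* (ENSG00000130766.5, chromosome 1, 28259518 to 28282491, plus strand), the stress-induced sestrin, was at 17.4, 19.2 and 16.8 TPM in DMSO and at 61.7, 57.2 and 58.4 TPM in Chelator. Every Chelator library was well above every DMSO library. Its log2 fold change was 1.70 (SE 0.077, DESeq2 adjusted p = 2.88e-106), or 3.25-fold (95% interval 2.93 to 3.61). In the same class of abundant genes 143 had a larger log2 fold change.

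*SESN3* (ENSG00000149212.12, chromosome 11, 95165513 to 95232541, minus strand), a sestrin known as a FOXO target, was the least abundant sestrin. It was at 1.12, 1.62 and 1.19 TPM in DMSO and at 3.16, 2.79 and 2.63 TPM in Chelator, with no overlap. Estimated counts were 687, 838 and 619 in DMSO and 1917, 1748 and 1371 in Chelator. On the log2 scale the fold change was 1.11 (SE 0.13, DESeq2 adjusted p = 3.07e-17), or 2.16-fold (95% interval 1.82 to 2.57). This value lies close to the threshold for a call. It was 0.91 after centring on the mean change over all genes and just under 1 without the length offset, so that the call was lost in both, though the adjusted p stayed under 0.05. With trends in GC content and length removed it was 1.53.

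*SESN1* (ENSG00000080546.14, chromosome 6, 108984309 to 109094846, minus strand) was at 4.89, 5.77 and 4.61 TPM in DMSO and at 4.58, 4.34 and 4.58 TPM in Chelator. All Chelator libraries lay below all DMSO libraries, but the closest pair differed by little. The log2 fold change was -0.20 (SE 0.10, DESeq2 adjusted p = 0.110), with a 95% interval of -0.40 to -0.0037. It passed an adjusted p of 0.05 after centring (-0.41) and without the length offset (-0.24), and was -0.0097 with GC content and length trends removed.

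Shares within a library do not depend on how libraries are scaled. *SESN2* made up 74.3%, 72.3% and 74.4% of the summed sestrin TPM in DMSO and 88.9%, 88.9% and 89.0% in Chelator. *SESN1* made up 20.9% ± 0.651 (SD, n = 3) in DMSO and 6.77% ± 0.194 in Chelator, and *SESN3* 5.37% ± 0.661 and 4.30% ± 0.275. The summed sestrin level was 24.2 ± 2.13 TPM in DMSO and 66.4 ± 2.68 TPM in Chelator. Each of these measures separated the groups, which with 3 libraries against 3 gives the smallest p that a two-sided exact permutation test allows, 0.1. *DDIT4* TPM divided by *SESN2* TPM was 5.66 ± 0.217 in DMSO and 8.69 ± 0.438 in Chelator, also with no overlap.

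**Figure D1:**
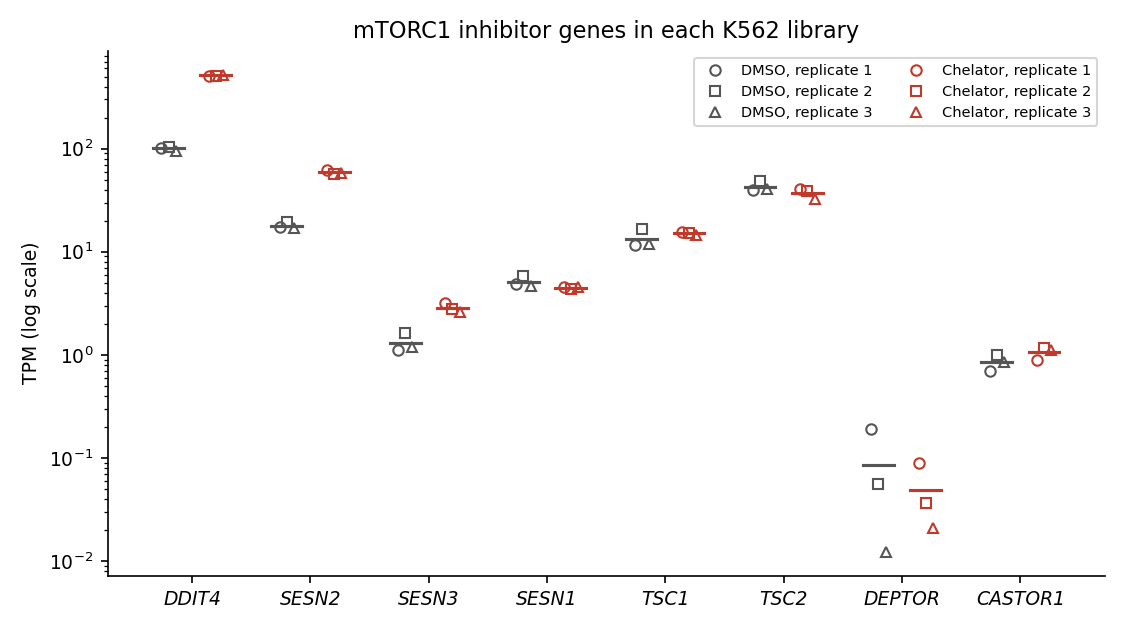
Level of each of the 8 genes in each library, in TPM on a log axis; symbols mark the replicate number, gray is DMSO, red is Chelator and the bars are group means. *DDIT4*, *SESN2* and *SESN3* separate widely by group, the TSC genes overlap, and *DEPTOR* lies under 0.2 TPM in all libraries.

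*TSC1* and *TSC2* encode the core of the TSC complex, TSC2 being the part that acts on RHEB. *TSC1* (ENSG00000165699.15, chromosome 9, 132891348 to 132946874, minus strand) was at 11.7, 16.5 and 11.97 TPM in DMSO and at 15.6, 15.2 and 14.5 TPM in Chelator. DMSO replicate 2 was the highest of all 6 libraries, and the groups overlapped. The log2 fold change was 0.16 (SE 0.094, DESeq2 adjusted p = 0.193), or 1.12-fold with a 95% interval of 0.982 to 1.27. Without DMSO replicate 2 it was 0.24 and passed (adjusted p = 0.0117), with GC content and length trends removed it was 0.23 and passed (adjusted p = 0.0125), and after centring its sign turned (-0.049).

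*TSC2* (ENSG00000103197.19, chromosome 16, 2047967 to 2089491, plus strand) was at 39.4, 48.7 and 40.4 TPM in DMSO and at 40.7, 39.0 and 32.5 TPM in Chelator. TPM values overlapped between the groups, while normalized counts were lower in all Chelator libraries (8130 to 10511) than in all DMSO libraries (10716 to 11180). The log2 fold change was -0.22 (SE 0.094, DESeq2 adjusted p = 0.0552), or 0.860-fold with a 95% interval of 0.757 to 0.977. It was called in 0 of the 14 alternative fits, and passed an adjusted p of 0.05 in 6 of them, including centring (-0.43), the removal of GC content and length trends (-0.41) and the fit without Chelator replicate 1 (-0.30). It was smaller without Chelator replicate 3, the lowest library (-0.12, adjusted p = 0.273), and with edgeR's quasi-likelihood test (-0.17, adjusted p = 0.156) or TMM size factors in DESeq2 (-0.17, adjusted p = 0.153).

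The ratio of *TSC2* TPM to *TSC1* TPM was 3.37, 2.96 and 3.37 in DMSO and 2.61, 2.56 and 2.25 in Chelator, without overlap (exact permutation p = 0.1, two-sided, the smallest possible). For 7 of the 8 genes the highest DMSO TPM was in DMSO replicate 2, the exception being *DEPTOR*. The share over all genes was not counted. Outside the 8, *MTOR* (37.1, 53.0 and 39.5 TPM in DMSO) and *RHEB* (91.2, 107 and 93.1 TPM) also peaked there, while *ULK1* (7.76, 7.23 and 6.99 TPM) did not. DMSO replicate 2 had 4.42% of its counts on mitochondrial genes, against 7.07% and 6.66% in the other DMSO libraries and 5.37% to 6.27% in Chelator.

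**Figure D2:**
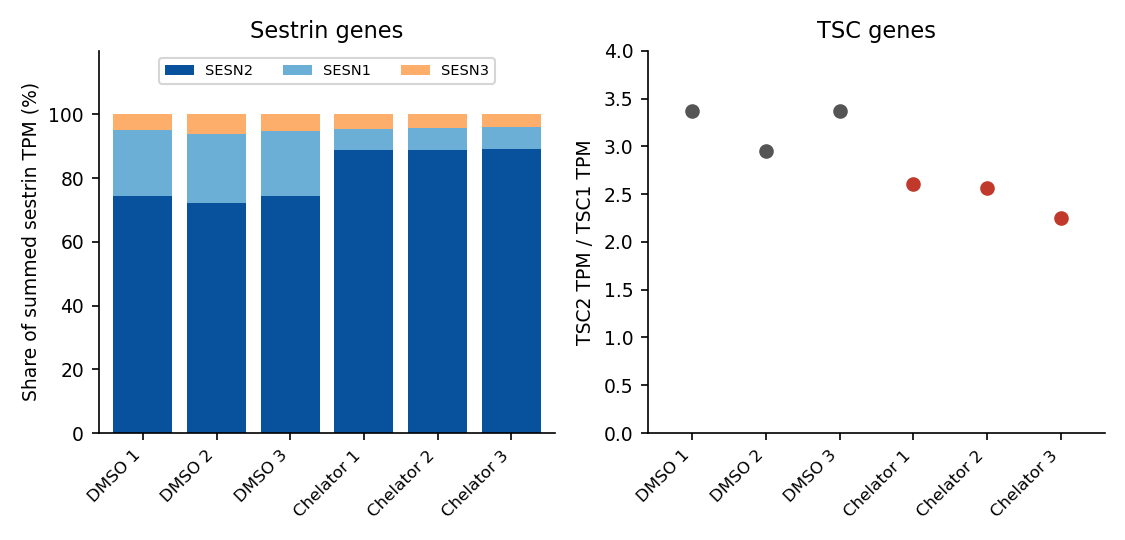
Left, share of each sestrin gene in the summed sestrin TPM of each library, in percent; right, *TSC2* TPM divided by *TSC1* TPM in each library, gray for DMSO and red for Chelator. *SESN2* takes about the same share in all Chelator libraries, near 89%, and the ratio of the TSC genes is below 2.7 in Chelator and above 2.9 in DMSO.

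*CASTOR1* (ENSG00000239282.8, chromosome 22, 30285117 to 30289622, minus strand) was barely expressed, at 0.696, 0.989 and 0.845 TPM in DMSO and 0.886, 1.16 and 1.12 TPM in Chelator. Its estimated counts were 75.0, 88.0 and 65.0 in DMSO and 96.9, 124 and 102 in Chelator. TPM values overlapped between the groups and normalized counts narrowly did not. Its log2 fold change was 0.30 (SE 0.29, DESeq2 adjusted p = 0.473), and the 95% interval for the fold, 0.832 to 1.82, includes both no change and a marked rise. A readthrough gene on the same strand, ENSG00000248751, shares 46.0% of its exon bases, and was given 0 counts in DMSO and 2.3 to 9.5 in Chelator.

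*DEPTOR* (ENSG00000155792.10, chromosome 8, 119873717 to 120050918, plus strand) was near the limit of detection. It received 5, 4.34 and 1 estimated counts in DMSO and 16, 7 and 3.35 in Chelator. TPM values were 0.191, 0.0555 and 0.0123 in DMSO and 0.0887, 0.0369 and 0.0209 in Chelator. Counts were on average higher in Chelator and TPM in DMSO, and the average effective length assigned was 325 bases in DMSO replicate 1 against 2128 to 2168 bases in Chelator. The DESeq2 adjusted p was 0.733, with a 95% interval for the log2 fold change of -3.09 to 1.73. The fitted value, -0.68, turned sign in 2 of 13 alternative fits. No difference was detectable at this depth.

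Ordered by mean TPM, the genes in DMSO ran *DDIT4* (101), *TSC2* (42.8), *SESN2* (17.8), *TSC1* (13.4), *SESN1* (5.09), *SESN3* (1.31), *CASTOR1* (0.844) and *DEPTOR* (0.0862). In Chelator *SESN2* (59.1) stood above *TSC2* (37.4), and the others kept their places. No neighbours in either order overlapped between their libraries, though in DMSO the lowest *SESN2* value (16.8) was barely above the highest *TSC1* value (16.5).

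**Figure D3:**
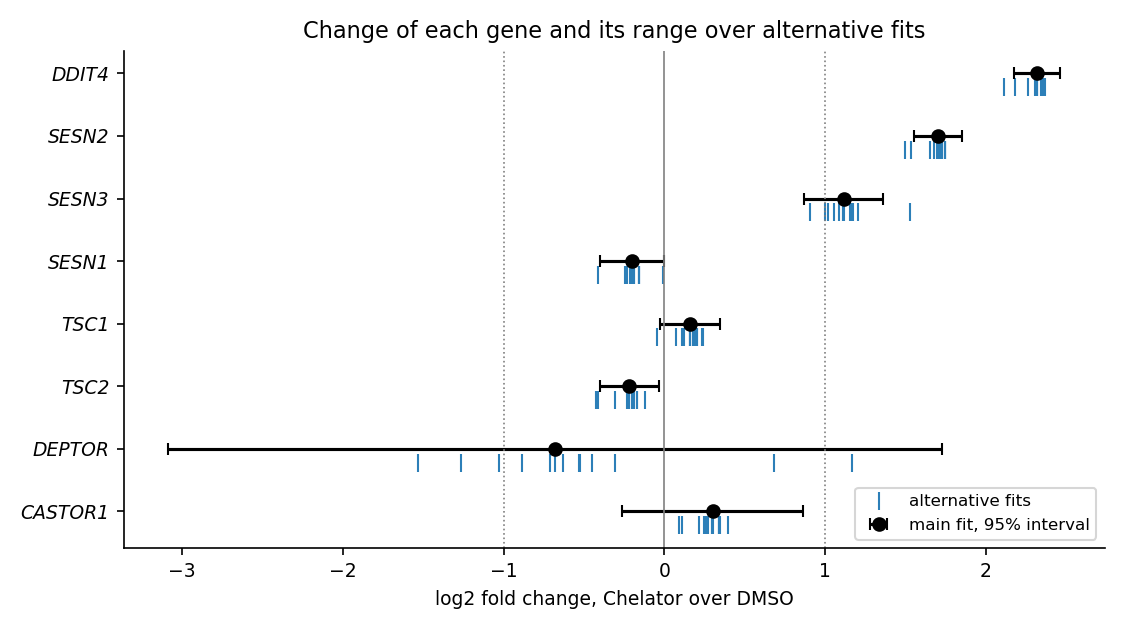
log2 fold change of Chelator over DMSO for each gene: black points with 95% intervals from the DESeq2 fit, and blue ticks for each alternative fit; dotted lines mark a log2 fold change of 1 in either direction. *DDIT4* and *SESN2* stay above 1 in all 14 alternatives, *SESN3* lies on both sides of 1, and *DEPTOR* on both sides of 0.

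Reads shared with other genes limit some of these values, since whether the counting used strand is not given in the sources used here. *TSC2* shares 3.82% of its exon bases with *PKD1* on the opposite strand, and 8.62% of its 31-base sequences occur, on either strand, in annotated transcripts of other genes. *TSC1* shares 1.98% of its exon bases with *GFI1B*, an erythroid transcription factor gene on the opposite strand that received 6171 to 8334 counts, more than *TSC1* itself in every library. *DEPTOR* shares 9.59% of its exon bases and 8.51% of its 31-base sequences with DEPTOR-AS1 on the opposite strand, which received 3.4 to 19.3 counts, more than *DEPTOR* in 4 of the 6 libraries. The share of 31-base sequences found in other genes was 42.7% for *CASTOR1*, all of it in the readthrough gene, 4.73% for *SESN1*, 3.65% for *TSC1* and 0.468% for *SESN3*, which overlaps LNCRNA-IUR (142 to 353 counts) on the opposite strand. For *DDIT4* and *SESN2* it was 0%.

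Transcript usage, the share of each transcript in the TPM of its gene, could be tested for 5 of the 8 genes and was called for 0, against 9.22% of all 11938 genes tested (edgeR's diffSpliceDGE, adjusted Simes p under 0.05 and a share change above 5 percentage points). At an unadjusted p under 0.05 the number was also 0, and the number called was 0 in all the other usage tests run, limma's included. In simulated data 154 of the 311 calls of edgeR's test were false, so the 9.22% may hold many false calls. *SESN2* has a single annotated transcript, and *SESN3* and *DEPTOR* did not have 2 transcripts with enough counts.

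No shift between the transcripts of *DDIT4* was detected. The coding transcript DDIT4-201 held 80.9% ± 2.46 (SD, n = 3) of its TPM in DMSO and 80.7% ± 2.52 in Chelator, and DDIT4-204, annotated as subject to nonsense-mediated decay, 16.5% ± 2.88 and 16.6% ± 1.87. The shares overlapped between the groups. *SESN1* was divided between SESN1-202, at 49.3% ± 8.42 in DMSO and 52.2% ± 4.95 in Chelator, and SESN1-204, at 45.4% ± 4.97 and 43.98% ± 4.43. *SESN3* was nearly all SESN3-203, which held 100% ± 0 in DMSO and 97.3% ± 2.25 in Chelator.

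*TSC1* and *TSC2* have 47 and 68 annotated transcripts, and their TPM was scattered over many. TSC1-233 held 20.4% ± 4.96 of *TSC1* in DMSO and 17.4% ± 3.55 in Chelator, and TSC1-212 13.8% ± 1.92 and 10.3% ± 4.65. TSC2-204 held 26.5% ± 2.01 of *TSC2* in DMSO and 29.9% ± 2.80 in Chelator, and TSC2-248 9.57% ± 2.40 and 6.59% ± 1.09. The 35 retained-intron transcripts of *TSC2* together held 54.8% ± 0.850 of its TPM in DMSO and 54.8% ± 5.56 in Chelator. Its 10 nonsense-mediated decay transcripts held 4.74% ± 1.39 in DMSO and 2.95% ± 0.557 in Chelator, without overlap between the groups, and the class was not tested. The retained-intron sum leans on short transcripts. TSC2-256, 209 bases long and singled out after its values were seen, held 5.04% ± 1.99 in DMSO and 11.5% ± 2.33 in Chelator on 2 to 4 and 7.07 to 13 counts, while TSC2-204 had 3978 to 5783 counts. *CASTOR1* was mostly CASTOR1-201 (39.0% ± 12.5 and 47.1% ± 25.7) and CASTOR1-202 (45.5% ± 39.4 and 27.3% ± 17.8), with errors too wide for a comparison. Its 4 retained-intron transcripts held 0%, 0% and 2.02% in DMSO and 3.45%, 14.6% and 28.5% in Chelator, without overlap and likewise not tested as a class. Each had at most 17.8 counts in a library. All *DEPTOR* TPM of a library lay on 1 transcript, DEPTOR-201 in the Chelator libraries and others in DMSO.

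The rest of the pathway was described by 9 lists, in which 103 genes appear and 101 were tested. Of these, 30 passed an adjusted p of 0.05 higher and 26 lower, against 18.5% and 17.4% of all genes (35.9% in either direction). The calls were 12 higher and 3 lower, including the 3 described above, against 7.81% and 2.46% of all genes, and the median log2 fold change was 0.05 against 0.02 over all genes. Without the 8 genes the lists held 9 called higher and 3 lower among 93 tested.

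In the list of the TSC complex and its target, which holds *TSC1*, *TSC2*, *TBC1D7*, *RHEB* and *RHEBL1*, 2 of 5 genes passed, both higher and neither called. *RHEB*, the GTPase that the complex turns off, had a log2 fold change of 0.35 (SE 0.062), and its relative *RHEBL1* 0.72 (SE 0.20). *RHEB* passed in 13 of the 14 alternative fits, but not after centring (0.14, DESeq2 adjusted p = 0.0530). Of the 12 genes for subunits and assembly factors of the mTOR complexes 6 passed lower and 1 higher, with a median of -0.31. *RPTOR*, the mTORC1 scaffold, was the most lowered of those that passed, at -0.54 (SE 0.084, DESeq2 adjusted p = 1.1e-09), and *MTOR* itself was at -0.30 (SE 0.082). The gene that passed higher, *PRR5L*, an mTORC2 partner, was also called, at 3.14 (SE 0.86, DESeq2 adjusted p = 0.00106). It was at 0.0165 to 0.134 TPM in DMSO and 0.338 to 0.396 TPM in Chelator, on 4 to 6 and 19 to 23 counts.

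Among the 19 genes for amino acid sensors and for the GATOR and KICSTOR complexes 4 passed higher and 4 lower. Besides *SESN2* and *SESN3*, *BMT2*, which encodes the S-adenosylmethionine sensor SAMTOR, was called higher at 1.23 (SE 0.19). Called lower were *KICS2*, a KICSTOR subunit, at -1.21 (SE 0.13), and *MIOS*, a GATOR2 subunit, at -1.01 (SE 0.079). *KICS2* stood at 3.56 to 4.78 TPM in DMSO and 1.70 to 1.97 TPM in Chelator, and *MIOS* at 30.5 to 37.9 and 16.8 to 17.4 TPM. *MIOS* lay at the threshold and was called in 7 of the 14 alternative fits, *KICS2* in all 14, and *BMT2* in all but the fit without the length offset, in which the list had 2 calls instead of 5. Of the 13 genes for Rag GTPases, Ragulator and folliculin 2 passed higher, with *FNIP1* at 0.51, and 3 lower, with *FLCN* at -0.33, and none was called. Of 9 tested AMPK and LKB1 genes 1 passed in each direction, *STK11* at 0.21, which turned to -0.04 with GC content and length trends removed, and *CAB39* at -0.31, which in that fit was -0.15 and did not pass (adjusted p = 0.0559).

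The PI3K and AKT list had 4 genes higher and 6 lower among 15, with 1 call, *PIK3R2*, a regulatory subunit of PI3K, at -1.10 (SE 0.072). The list had 2 calls after centring, without DMSO replicate 2 and without Chelator replicate 1, and 3 without the length offset. *INSR*, the insulin receptor gene, was its largest rise at 0.72 (SE 0.23), and passed in 10 of the 14 alternative fits, but not after centring (0.52) or without DMSO replicate 3 (0.49), Chelator replicate 1 (0.61) or Chelator replicate 3 (0.68). Of the 16 mTORC1 substrates and effectors 7 passed higher and 5 lower. *PDCD4*, an inhibitor of translation that S6 kinase marks for destruction, was called at 1.23 (SE 0.10), and *ULK1*, a kinase that starts autophagy, at 1.23 (SE 0.10). The call of *ULK1* was lost with GC content and length trends removed (0.98). *LARP1*, which binds mRNAs of the translation machinery, fell by 0.83 on the log2 scale (SE 0.064). *TXNIP*, a binding partner of REDD1, was called higher at 1.14 (SE 0.067), a call lost after centring (0.94), which left 1 of 2 calls in the list of REDD1 relatives and partners, and the REDD1 relative *DDIT4L* was listed at 0 counts in every library.

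Of 10 genes for transcription factors known to raise *DDIT4* or sestrin genes, 7 passed higher and 1 lower, and 4 were called, all higher, with a median of 0.51. Over all genes 18.5% passed higher and 17.4% lower, 7.81% were called higher, and the median was 0.02. *EPAS1*, which encodes HIF-2alpha, went from 1.83 to 2.49 TPM in DMSO to 15.2 to 20.5 TPM in Chelator, which is 3.08 on the log2 scale (SE 0.13, DESeq2 adjusted p = 6.84e-121). *ATF3* was at 2.57 (SE 0.12), *DDIT3* (the protein is CHOP) at 2.32 (SE 0.11) and *ATF4* at 1.48 (SE 0.074). *HIF1A*, singled out after its values were seen, was at 0.003 (SE 0.099, DESeq2 adjusted p = 0.989). *FOXO1*, the only one to pass lower, was at -0.67 (SE 0.26, DESeq2 adjusted p = 0.0320), and missed the threshold in 9 of 14 alternative fits. Its relative *FOXO3*, added after its values were seen, passed higher at 0.44 (SE 0.084, DESeq2 adjusted p = 1.1e-06). *FOXO3* was at 6.60 to 8.76 TPM in DMSO and 10.0 to 10.8 TPM in Chelator, and *FOXO1* at 0.478 to 0.743 and 0.257 to 0.456 TPM. These are RNA levels, and protein or activity of the factors and of mTORC1 was not measured in these files.

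**Figure D4:**
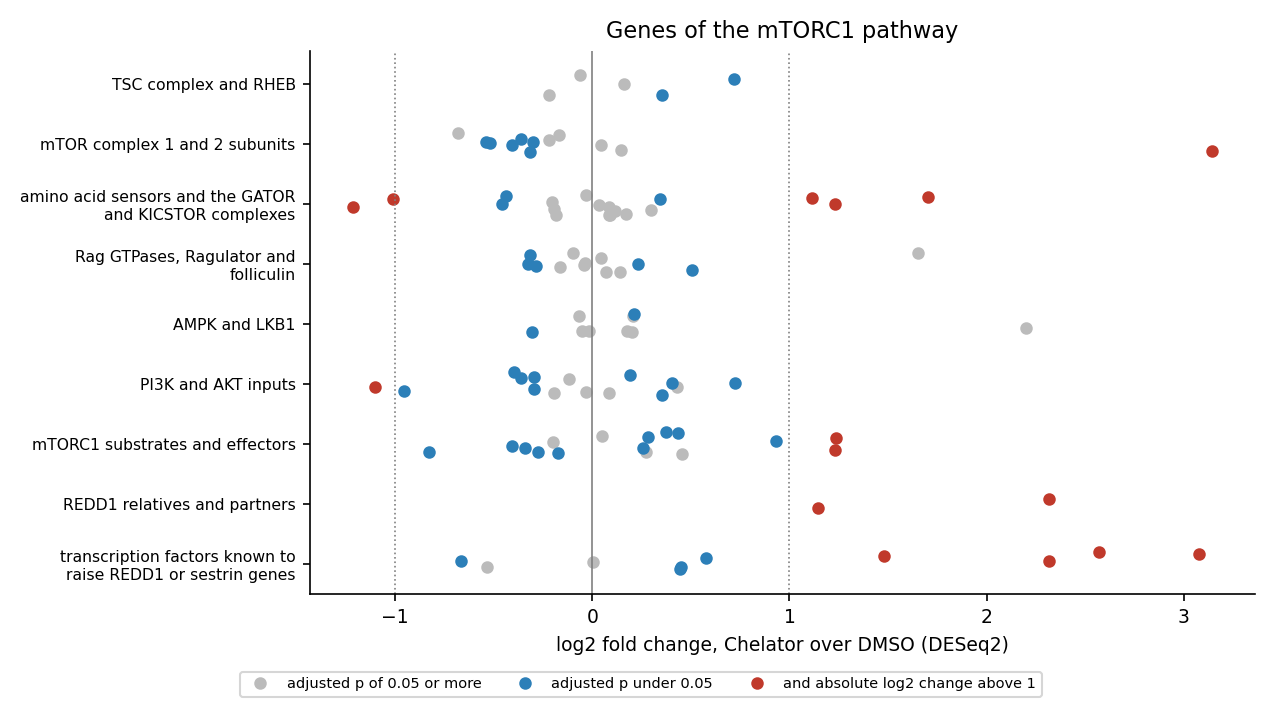
log2 fold change of Chelator over DMSO for every tested gene of the 9 lists, 1 point a gene, spread vertically at random within its list; gray points did not pass an adjusted p of 0.05, blue points passed, and red points also exceeded an absolute log2 fold change of 1 (dotted lines). Calls lie on the higher side except for *KICS2*, *MIOS* and *PIK3R2*.

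The genes most like each called gene over the 6 libraries were sought among the same 10341 abundant genes, by the root mean square difference of log2 normalized counts after centring each gene on its own mean. Nearest to *DDIT4* were *JUN* (0.05), *DDIT3* (0.06) and *ADM2* (0.07). Nearest to *SESN2* were *SLC20A1* (0.02), *POLD4* (0.05) and *MSMO1* (0.05), and nearest to *SESN3* were *NIBAN1* (0.05), *CDCP1* (0.06) and the long noncoding RNA gene ENSG00000286892 (0.06). All come from the same libraries, so the likeness includes the difference between the groups that they share.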

How the data were processed

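The authors quantified reads per transcript with Salmon 1.10.2, as listed in the submitters' processing notes, against hg38; the transcript annotation and bias options are not given in the sources used here. The deposited files give, per library, an estimated count and a TPM for each of 252045 transcripts, with the lengths and effective lengths that the authors' run used. TPM was deposited already scaled to the same sum per library.

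Transcript identifiers were looked up in GENCODE release 44 (251142 had the same version and length, 470 another version, and 433 none, with at most 0.150% of counts). Estimated counts were summed per gene and rounded. Genes with a total count above 10 entered DESeq2 1.42.0 (Wald test, R 4.3.3), with average transcript length as an offset. Of 26074 such genes 25553 received an adjusted p, and 95% intervals are the estimate ± 1.96 SE. Transcript usage was tested with edgeR 4.0.16 over transcripts with at least 10 counts in 3 libraries, with limma 3.58.1 as an alternative. Scripts were tested on simulated data. With 200 changed genes among 26074, 97% were recovered with 22 false calls. The changed genes were drawn from well counted genes and given changes clearly beyond the threshold. This recovery therefore does not apply to *SESN3*, near the threshold, or to *CASTOR1* and *DEPTOR*, with few counts. For usage, with 200 changed among 11938 genes, 78.5% were recovered, and 154 of 311 calls were false. A second usage test, limma on the log2 ratio of each transcript to the rest of its gene, was added after seeing the data and recovered 91% with 20 false calls.

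Named beside the 8 genes were, per list, up to 4 called genes and the largest change passing the test in each direction, the 3 nearest profiles of each called gene (mean normalized count of at least 500), the 2 most abundant transcripts of each gene, and genes sharing exons or sequence. *RHEB*, *MTOR*, *MIOS*, *HIF1A*, *FOXO3* and *DDIT4L* were named for context, after their values were seen where the rule did not take them. The genes and lists were chosen with earlier results of these data known, and 1 gene of the lists is not reported here and was left out of their counts. Promoter sequences are from RefSeq. Depth limits precision mainly for *DEPTOR* and *CASTOR1*. The p-values weigh the difference between the groups against the spread between libraries labelled as replicates, which DESeq2 estimates with information from all genes.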

Additional observations from a re-analysis of the deposited data

How the results depend on the processing

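Over 14 alternative fits *DDIT4* (log2 fold change 2.11 to 2.37) and *SESN2* (1.49 to 1.75) were called in all, and *SESN3* (0.91 to 1.53) in 12. The number of the 8 genes called was 3 in all fits but centring on the mean change and no length offset, which gave 2. Without the limit on fold change 9183 genes passed instead of 2624, and 56 list genes instead of 15. Centring removed a mean log2 change of 0.21, moved the median of all genes from 0.02 to -0.19 and the share of calls that were higher from 76.1% to 55.5%. Signs turned for *DEPTOR* without the length offset (1.16) and without DMSO replicate 1 (0.68, from -1.53 to 0.68 over the fits that leave out 1 library), for *TSC1* after centring (-0.049), for *STK11* with GC content and length trends removed (-0.036) and for *HIF1A*, at about 0 in the report, after centring (-0.20), without the length offset (-0.16), with the replicate block (-0.00056) and over the fits without 1 library (-0.086 to 0.067); the cause was not tested, and *DEPTOR* did not enter the fit with at least 10 counts in 3 libraries. Without 1 library at a time 2204 to 2590 genes, 3 of the 8 genes and 14 to 16 list genes were called.

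Transcript usage called 1101 genes, and 3184 with limma's diffSplice, 2009 with the ratio test added after seeing the data, 728 with a threshold of 10 percentage points, and 539 to 1063 without 1 library at a time, 592 of them without Chelator replicate 2 and 539 without Chelator replicate 3. None of these called a gene among the 8.

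Deviations from the group means of same-numbered libraries correlated at -0.075, 0.13 and 0.10, against -0.16 to 0.082 between different numbers. The libraries of replicates 2 and 3 correlated best with their own number, and those of replicate 1 did not. With 3 libraries a group this cannot settle whether the replicate numbers pair the samples. With the replicate number as a block 2333 genes, 3 of the 8 genes, 15 list genes and 923 genes for usage were called, and *TSC2* had an adjusted p of 0.0497. Counts under about 10 per library, as for *DEPTOR*, allowed no firm comparison.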
